A study of Rattus norvegicus with 10 samples.

Results

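The mitochondrial ribosomal proteins are the protein part of the ribosome inside mitochondria. Their genes were taken from the deposited table by symbol, as every row whose gene symbol begins with Mrpl or Mrps followed by a digit, in any case. This gave 69 genes on 73 loci, of 25269 loci in all, and the 4 genes that stand on several loci (Mrpl1, Mrpl30, Mrpl36 and Mrpl55) were summed per library. After the same summing of every named locus the table held 23824 genes and unnamed loci, called features here. The samples were hippocampi of male Sprague-Dawley rats, taken 1 week after surgery and after a test of learning. In 5 libraries the rats had a traumatic brain injury (TBI) made by fluid percussion, in which a fluid pressure pulse is delivered to the brain. In the other 5 they had sham surgery, and no genetic change or drug is named for either group. Polyadenylated RNA was sequenced, and the values are FPKM, in which fragment numbers are divided by transcript length and by a measure of library size.

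Mitochondria translate the few messages of their own genome, which encode core subunits of the respiratory chain and ATP synthase, on ribosomes of their own. The ribosomal RNAs of these ribosomes come from the mitochondrial genome, but all of their proteins are encoded in the nucleus, made in the cytosol and imported. Many members descend from bacterial ribosomal proteins and keep a bacterial counterpart, and the others were added during the evolution of mitochondria. Neurons depend heavily on oxidative phosphorylation, and inherited defects of several of these genes cause early brain or heart disease.

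The libraries were alike in scale, with 75th percentiles of 13.09 to 13.47 FPKM over all loci but the depth of sequencing is unknown. The markers of brain cell types were present: none of the 10 neuronal, 8 astrocyte, 10 microglial or 8 oligodendrocyte markers was listed at 0 in any library. The libraries differed in tissue other than hippocampus. The choroid plexus transcript Ttr ranged from 34.5 to 32230 FPKM, and the sum of the choroid plexus markers ranged from 108.8 FPKM (a sham library) to 34390 FPKM (TBI 1), with Otx2 at 0 in at least 1 library. TBI 1 stood apart: it had the lowest summed neuronal markers of the 10 libraries (2971 FPKM, against 4371 to 5649 in sham and 4495 to 5553 in the other TBI libraries), the lowest summed astrocyte markers, and the highest summed meningeal markers (652.9 FPKM). In tissue RNA, fewer cells of a type and less RNA per cell cannot be told apart. Since no label states outright that libraries are separate rats, a p-value here reflects only how much these libraries vary.

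Most of the 69 genes were measured at a moderate level that changed little from library to library. Of the members, 67 had a mean of at least 0.5 FPKM and were tested, and 63 of these lay between 10 and 100 FPKM. Their median was 24.8 FPKM, against 11.7 for the 11489 named features tested, and 63 of the 67 lay above that median. For a given member the highest of the 10 libraries was between 1.21 and 2.16 times the lowest, and this ratio was under 2 in 66 of 67. The median SD over the 10 libraries was 0.16 on the log2(FPKM + 0.5) scale, against 0.23 over all features tested, whose median level was lower (8.49 FPKM). Other mitochondrial genes were as steady, with 0.16 for the nuclear subunits of oxidative phosphorylation and 0.14 for genes of mitochondrial mass and import.

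In the large subunit, Mrpl17, a counterpart of bacterial L17, had the highest level of all members. It was measured at 81.1, 80.4, 73.2, 71.6 and 73.4 FPKM in sham 1 to sham 5 and at 65.2, 86.2, 80.5, 81.0 and 80.6 in TBI 1 to TBI 5. TBI 1 was the lowest and TBI 2 the highest of the 10 libraries, and the other TBI libraries lay inside the sham range. Mrpl27, whose bacterial counterpart reaches toward the peptidyl transferase centre, had a mean of 57.2 FPKM over the 10 libraries and Mrpl54, a mitochondria-specific protein, one of 57.0. At the lower end, Mrpl1, the counterpart of the bacterial L1 stalk protein near the exit of spent tRNA, had a mean of 2.19 FPKM, which came nearly all from 1 of its 2 loci. Mrpl40, a mitochondria-specific protein, had 4.10 FPKM, Mrpl47 8.26 and Mrpl50 9.34. The range in FPKM between genes of 1 particle was thus wider than that of any gene over libraries, as the plot of FPKM by gene shows.

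**Figure D1:**
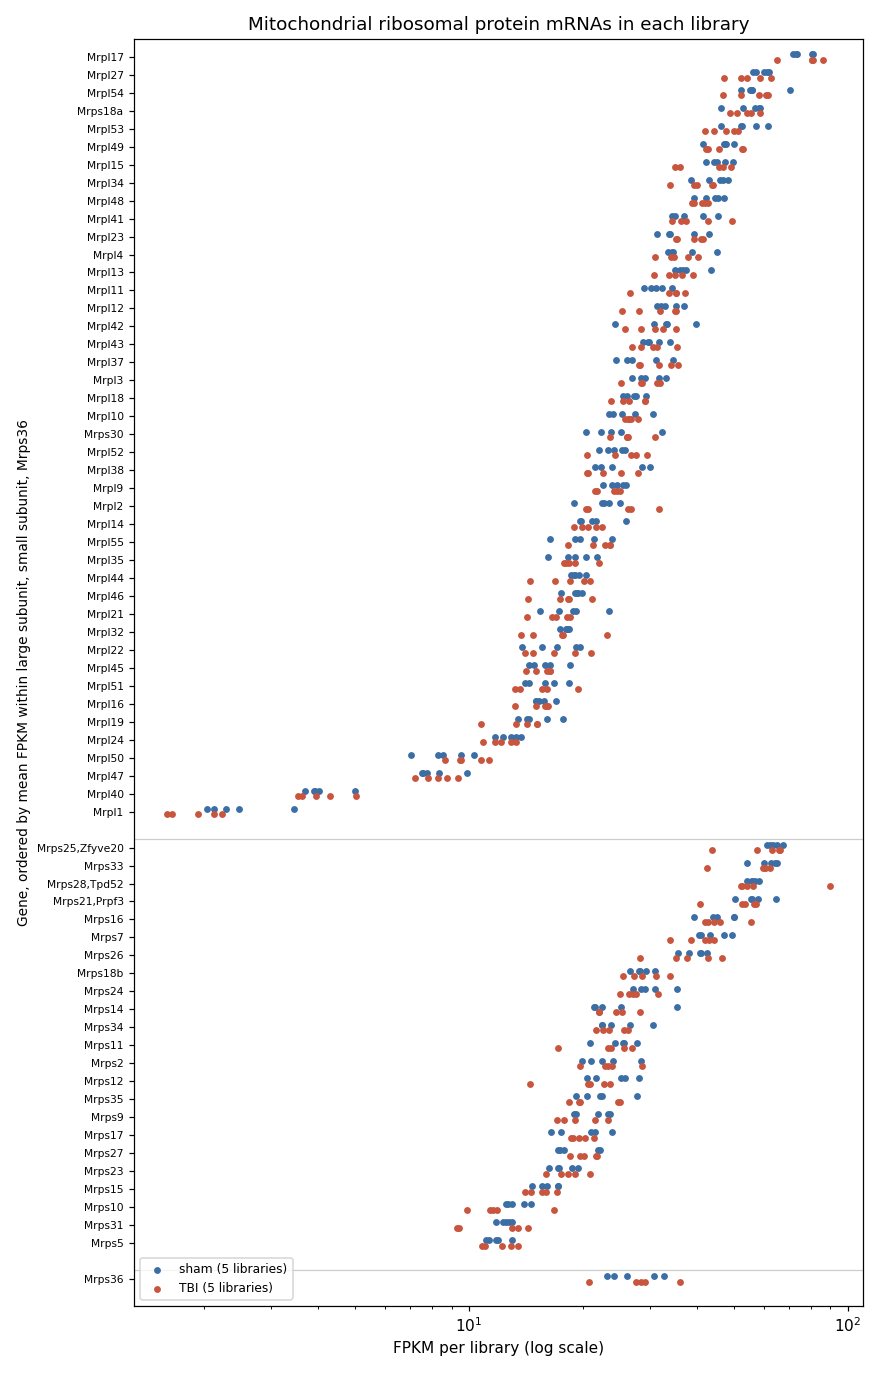
FPKM of each of the 67 tested mitochondrial ribosomal protein genes (horizontal, log scale) in the 5 sham libraries (blue) and the 5 TBI libraries (red), 1 point a library, grouped by subunit. Genes run from Mrpl17 with a mean of 77.3 FPKM to Mrpl1 with 2.19 FPKM, and the blue and red points overlap for each gene.

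The small subunit had a narrower range of levels. Its highest single-gene row was Mrps33, a mitochondria-specific protein, with 61.3 ± 4.39 FPKM in the sham libraries and 57.1 ± 8.26 in the TBI libraries (mean ± SD, n = 5 in each group, as in all values of this form), and its lowest was Mrps5 with a mean of 12.0 FPKM. The small subunit's 23 tested members had a median of 24.1 FPKM and the large subunit's 43 one of 25.7. The 41 tested members with a bacterial counterpart and the 25 mitochondria-specific ones also had like medians, 24.1 and 25.0 FPKM. Mrps36, at a mean of 27.9 FPKM, is in neither subunit's count, since despite its name the protein is known as a component of the 2-oxoglutarate dehydrogenase complex.

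For 3 members the locus also names a second gene, and the values cannot be divided between them. These are Mrps25 with Zfyve20, an endosomal protein (61.6 FPKM), Mrps28 with Tpd52, a protein of vesicle traffic (58.6 FPKM), and Mrps21 with Prpf3, a splicing factor (54.5 FPKM). They are 3 of the 7 members with the highest level. Of the 3 paralogs related to bacterial S18, Mrps18a, which sits in the large subunit, had 54.5 ± 5.21 FPKM in sham and 53.7 ± 3.85 after TBI. The small-subunit paralog Mrps18b had 28.6 ± 1.60 and 29.3 ± 3.35. The third, Mrps18c, is named only behind Agpat9 on a shared locus (25.4 ± 0.569 and 23.6 ± 2.26 FPKM) and is not a member by the rule, and Mrpl20 shares its locus with Aurkaip1 and Ccnl2 in the same way (135.0 ± 12.0 and 131.3 ± 8.65 FPKM).

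The filter on mean FPKM left out 2 members. Mrpl36, a counterpart of bacterial L36, was listed at 0 in all 10 libraries on both of its loci, and Mrpl30 was between 0 and 0.150 FPKM. The cytosolic ribosomal protein genes Rpl8, Rpl38 and Rps27a, which every cell uses, were also listed at 0 in all 10 libraries, so a listed 0 can be a failed estimate and is not read as absence of the message. Both members encode proteins of the large subunit, and no comparison was made with them.

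The stretch around the transcription start was also described, and any link between its letters and the members' values was not tested. RefSeq promoter windows of the GRCr8 build, 250 bases before and 50 after each start, were matched by symbol to 55 of the 69 members, with 57 windows because 2 members have several entries. Motifs were searched as exact letters on both strands and compared with the 21842 windows of protein-coding genes. The core of the motif of NRF1 (CATGCGC), a transcription factor known for nuclear genes of mitochondrial proteins, was in 10.5% of the members' windows and 4.32% of protein-coding windows. The ETS-type core CCGGAAG, which the factor GABP is known to bind, was in 28.1% and 10.7%, and in 15.8% and 9.01% when only the bases before the start were searched. The letters ATGGCGG, found in the motif of YY1, were in 24.6% and 5.998%, but in 0% of the members' windows when only the bases before the start were searched (2.66% of protein-coding ones), so those matches reached past the start. By contrast the SP1-type core GGGCGG was in 47.4% and 41.8%, CCAAT in 42.1% and 38.0%, and the TATA-box letters TATAAA in 14.04% and 13.0%. The median number of CG pairs per window was 18 for members and 11 for protein-coding genes. These shares are descriptions of letters in these windows, and the windows of 1 build's annotation need not hold the starts used in hippocampus.

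The following 4 stretches are the last 100 bases before the start, read 5′ to 3′. They show the NRF1 and ETS-type letters (in capitals) in members named in the text. Mrpl17 has the highest level and Mrpl22 was highest in TBI 1. Mrpl23 is among the members with a higher mean after TBI, and Mrpl53 has the smallest p-value. The first 2 hold the NRF1 core, which can overlap itself on the opposite strand, and the last 2 the ETS-type core.
Mrpl17: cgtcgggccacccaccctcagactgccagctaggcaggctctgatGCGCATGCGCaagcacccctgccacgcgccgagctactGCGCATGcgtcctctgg
Mrpl22: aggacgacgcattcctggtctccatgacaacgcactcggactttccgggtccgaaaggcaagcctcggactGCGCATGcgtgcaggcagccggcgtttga
Mrpl23: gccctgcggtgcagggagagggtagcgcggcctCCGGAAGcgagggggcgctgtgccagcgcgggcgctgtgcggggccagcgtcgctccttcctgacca
Mrpl53: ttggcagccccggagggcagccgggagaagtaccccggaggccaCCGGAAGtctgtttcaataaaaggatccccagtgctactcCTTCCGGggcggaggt

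Many members start back to back with another gene. In the same RefSeq annotation 16 of the members' 57 windows (28.1%) had a protein-coding neighbour that starts within 1000 bases upstream on the opposite strand, against 6.86% of protein-coding windows. In 1 such pair both genes are members: Mrpl46, a mitochondria-specific large-subunit protein, and Mrps11, a small-subunit protein with a bacterial counterpart. Mrpl46 was lowest in TBI 1 at 14.4 FPKM and between 17.4 and 21.1 in the other 9 libraries, and Mrps11 was lowest in the same library at 17.2 FPKM and between 20.9 and 27.7 elsewhere. Of the 67 tested members 32 were lowest in TBI 1, so a shared lowest library is common among them. The highest library differed, being TBI 4 for Mrpl46 and sham 2 for Mrps11. Any link between a shared start and the values was not tested. Mrpl47 shares such a start region with Ndufb5, a subunit of respiratory complex I, and Mrpl49 with Fau, which encodes a cytosolic ribosomal protein.

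Injured and sham hippocampi were compared for messages of the mitochondrial ribosome 1 week after surgery. No member passed. With limma and Benjamini-Hochberg adjustment over all 16194 features tested, 0 of 67 members had an adjusted p under 0.05 (0% of all features), and the smallest adjusted p of a member was 0.983. Before adjustment, 0 of 67 members had a p under 0.05, against 2.91% of all features. The groups overlapped in each of the 67, whereas 0.482% of all features had groups without overlap.

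The differences were small and their intervals narrow. The median absolute difference was 0.074 on the log2(FPKM + 0.5) scale, and the widest was -0.29, in Mrpl1. For 65 of 67 members the whole 95% interval of the difference lay within 0.5 log2 units either way, that is within a factor of 1.41 in either direction on that scale. The same held for 59.5% of all features tested. It held for 91.3% of the nuclear subunits of oxidative phosphorylation, 100% of the genes of mitochondrial mass and import and 70.8% of cytosolic ribosomal proteins. The exceptions, Mrps12 and Mrpl1, had intervals of -0.55 to 0.05 and -0.61 to 0.03.

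**Figure D2:**
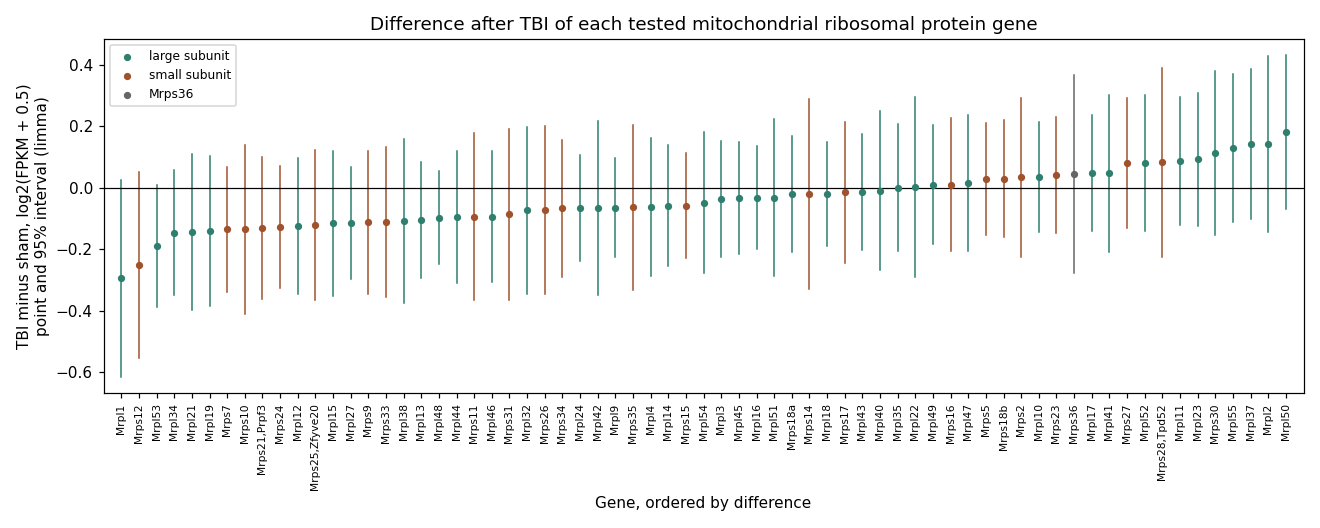
Difference TBI minus sham of each tested member on the log2(FPKM + 0.5) scale (vertical), with 95% intervals from limma, ordered from lowest to highest and coloured by subunit. Each of the 67 intervals includes 0, and 45 of the 67 points lie below it.

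More members had a lower than a higher mean after TBI. Of 67 members 22 had a higher mean log2 value (50.4% of all features did), and the median difference was -0.05 against 0.0013 over all features. The lean was present in both subunits, with 14 of 43 higher in the large (median -0.03) and 7 of 23 in the small (median -0.07), and in members with and without a bacterial counterpart (13 of 41 and 8 of 25 higher). It was smaller without TBI 1, in which neuronal markers were also lowest. Without that library 29 of 67 had a higher mean (43.3%, against 53.7% of all features) and the median was -0.02. Without both libraries numbered 1, 34 of 67 had a higher mean (50.7%, against 54.7% of all features) and the median was 0.0024. TBI 1 also had the highest choroid plexus markers. With a choroid plexus score as covariate 30 of 67 were higher (44.8%, against 52.1% of all features) and the median was -0.01. Without sham 1, 29 of 67 were higher (43.3%, against 51.9% of all features). The lean was larger without TBI 2 (17 of 67 higher, 25.4% against 48.4% of all features, median -0.07). The same was so without sham 3 (19 of 67, 28.4% against 49.1%, median -0.07). With libraries weighted by their spread (array weights) the lean was gone, with 39 of 67 higher and a median of 0.02. The members' share of 58.2% was then near the 54.6% of all features, whose median was 0.016. The part of the neuronal markers in this was not tested.

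Among members with a lower mean, Mrpl53, a mitochondria-specific protein of the large subunit, had the smallest p. It was at 57.1, 61.4, 52.6, 46.4 and 52.3 FPKM in sham 1 to sham 5 and at 50.2, 51.4, 42.1, 47.8 and 44.4 in TBI 1 to TBI 5. All 5 TBI libraries lay below the sham mean, but sham 4 lay inside the TBI range. The log2 difference was -0.19 (SE 0.09, unadjusted p = 0.0597 and adjusted p = 0.983 in limma). Without sham 4 the groups did not overlap, as was then the case for 0.938% of all features, and the difference was -0.24 with limma's adjusted p = 0.994.

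Mrpl1 was at 3.45, 2.29, 2.13, 2.04 and 2.47 FPKM in the sham libraries and at 2.24, 1.65, 1.60, 1.93 and 2.12 after TBI. Sham 1 was the highest, and TBI 1 and TBI 5 lay within the range of the other sham libraries. Its log2 difference was -0.29 (SE 0.14, limma's adjusted p = 0.983). An exact two-sided permutation test gave p = 0.0476 before and 1.0 after adjustment, but no feature could pass adjustment in that test. Mrps12, the counterpart of the bacterial S12 protein of the decoding centre, was at 28.2, 25.2, 21.7, 20.5 and 25.9 FPKM in sham and at 14.5, 22.7, 20.9, 20.6 and 23.6 after TBI. Only TBI 1 lay below the sham range, and the log2 difference of -0.25 (SE 0.14) was between -0.31 and -0.08 over 27 alternative analyses. The next 3 were Mrpl34 (44.6 ± 3.82 FPKM in sham and 40.3 ± 4.18 after TBI), Mrps7, which helps to build the head of the small subunit (44.3 ± 3.97 and 40.3 ± 4.20), and Mrps24, the counterpart of bacterial S3 at the entry of the messenger RNA (30.2 ± 3.21 and 27.6 ± 2.44).

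Among members with a higher mean, Mrpl50, a mitochondria-specific protein of the large subunit, had the smallest p. It was at 10.3, 9.53, 7.03, 8.54 and 8.27 FPKM in sham and at 11.3, 9.55, 8.63, 10.8 and 9.48 after TBI, with TBI 1 the highest and the groups overlapping. The log2 difference was 0.18 (SE 0.11, limma's adjusted p = 0.983). Mrpl55, the counterpart of bacterial L31, was at 23.8, 21.4, 19.7, 16.4 and 19.1 FPKM in sham and at 18.3, 23.6, 22.9, 21.2 and 23.5 after TBI. Here TBI 1 was the lowest of its group, and the log2 difference of 0.13 was 0.25 without the libraries numbered 1 (adjusted p = 0.914 in limma). Mrpl37 (28.7 ± 4.18 FPKM in sham and 31.6 ± 3.39 after TBI) and Mrps30 (24.8 ± 4.57 and 26.6 ± 2.65) are both mitochondria-specific proteins of the large subunit, despite the latter's name. Mrpl2, a core protein of the large subunit (22.5 ± 2.25 and 25.2 ± 4.78), and Mrpl23, at the exit of the peptide tunnel (36.3 ± 4.75 and 38.5 ± 3.07), complete the 6 with the smallest p in this direction. In limma none of these differences passed against the spread between libraries.

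Members with well-known roles gave no call either. Mrpl12, the stalk protein that brings translation factors to the ribosome and is also known to bind the mitochondrial RNA polymerase, had 33.8 ± 2.30 FPKM in the sham libraries and 31.1 ± 4.31 in the TBI libraries. Mrpl3, near the peptidyl transferase centre, was at 29.9 ± 2.44 and 29.1 ± 2.71. The disease genes Mrpl44, related to RNase III, and Mrps34 were at 19.3 ± 0.688 and 18.2 ± 2.57 and at 25.2 ± 3.51 and 23.9 ± 1.99. In these 4 genes TBI 1 was below every sham library, at 25.3, 25.1, 14.5 and 21.7 FPKM.

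The members varied together from library to library. After removal of the group means, the correlation of a member with the mean of the other 66 over the 10 libraries had a median of 0.60, was above 0.5 in 42 of 67 and was below 0 in 5. This is a description of values that share libraries and scaling. The same measure had a median of 0.69 among small-subunit members and 0.57 among large-subunit members. It was 0.77 among 69 nuclear subunits of oxidative phosphorylation and 0.43 among 65 cytosolic ribosomal proteins. Lists of brain cell type markers had higher medians, from 0.73 (endothelium) to 0.90 (oligodendrocytes), and the 5 subunits of this ribosome under other names had 0.22. Each list was measured only against its own genes, so lists of unlike length are not directly comparable. The correlation of those 5 subunits with the members was not computed, nor was the measure over all features. Without TBI 1 the members' median was 0.64. Mrps18b (0.88), Mrpl3 (0.87) and Mrps5 (0.86) followed the others most closely. Mrpl40 (-0.59), the locus of Mrps28 and Tpd52 (-0.53), Mrps16 (-0.24) and Mrpl49 (-0.18) were among the 5 that ran against them.

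**Figure D3:**
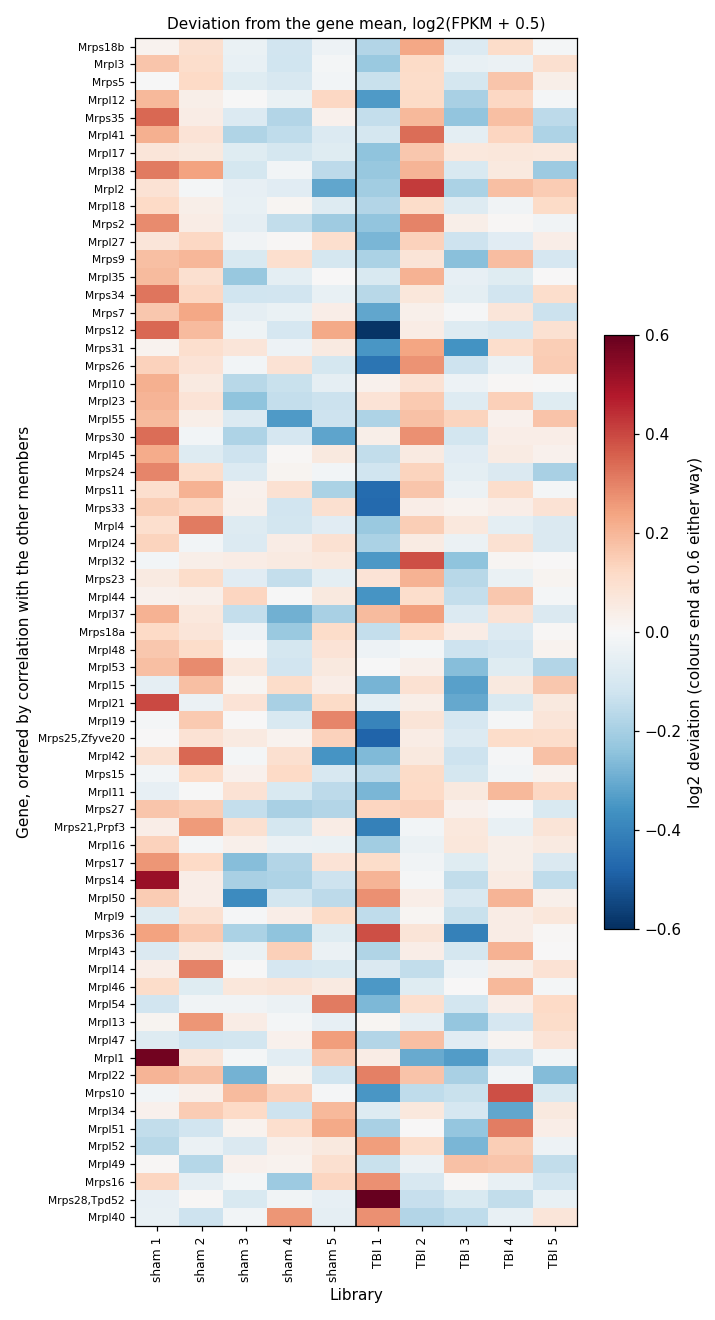
Deviation of each tested member (rows) from its own mean over the 10 libraries (columns, sham left of the line, TBI right) on the log2(FPKM + 0.5) scale, red above and blue below, with colours ending at 0.6. Rows run from the highest to the lowest correlation with the other members; the TBI 1 column is below the mean in 50 of 67 rows.

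On average the members were lowest in TBI 1 and TBI 3 and highest in sham 1. TBI 1 had the lowest of the 10 values in 32 of 67 members (47.8%, against 28.4% of all features tested), and TBI 3 in 13. Sham 1 had the highest value in 22 members (32.8%, against 14.97% of all features), and TBI 2 in 13. The mean deviation of the 67 members reached 0.12 in sham 1, 0.083 in sham 2 and 0.089 in TBI 2. The low libraries were TBI 1 at -0.13 and TBI 3 at -0.10, and the other 5 lay from -0.054 up to 0.038. The high libraries were thus found in both groups, while both of the low ones were TBI libraries. The difference between the group means was -0.038.

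In TBI 1 the members went in both directions. Of 67 members 50 (74.6%) were below their own mean there, against 53.5% of all features. In TBI 3 this held for more members, 54 of 67 (80.6%), against 49.7% of all features. In TBI 1, Mrps12 was 0.59 log2 units below its own mean, at 14.5 FPKM. Mrps33 was in TBI 1 at 42.4 FPKM against 54.3 to 65.2 in the other 9 libraries, and the locus of Mrps25 and Zfyve20 at 43.7 against 57.8 to 67.5. In 7 members TBI 1 was instead the highest library (10.45%, against 22.1% of all features). The locus of Mrps28 and Tpd52 was at 89.95 FPKM there and between 52.2 and 58.2 in the other 9, and since it names a second gene the high value cannot be assigned to Mrps28. Mrps16, a counterpart of bacterial S16, was at 55.4 FPKM against 39.2 to 49.99, and Mrps36 at 36.2 against 20.7 to 32.7. The remaining 4 were Mrpl22, Mrpl40, Mrpl50 and Mrpl52.

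Nuclear-encoded partners of these proteins were set beside them by library. In TBI 1 the mean deviation was -0.14 for 19 genes of mitoribosome assembly and ribosomal RNA modification. It was -0.11 for 12 genes listed as mitochondrial translation factors, a list that also holds the related genes Oxa1l, Letm1 and Mtfmt. It was -0.13 for 5 subunits of this ribosome under other names and -0.11 for 20 genes of mitochondrial mass and import. It was -0.0055 for the 69 subunits of oxidative phosphorylation, of which 13 were lowest in TBI 1. For 14 mitochondrial aminoacyl-tRNA synthetases it was -0.0094, and for 23 genes of mitochondrial transcription and RNA handling 0.023. The synthetases' median deviation in TBI 1 was lower, at -0.12, and 10 of the 14 lay below their own mean there. One of them, Hars2, was at 22.05 FPKM in TBI 1, against a sham mean of 9.76 FPKM. In sham 1 the mean deviation was 0.21 for oxidative phosphorylation, 0.12 for the members and -0.0039 for the assembly genes. Whether the lists differ in these libraries was not tested, since each is a single library. The neuronal markers had a deviation of -0.61 in TBI 1 and between -0.073 and 0.14 elsewhere, and 8 of 10 were lowest there. In sham 1 and TBI 2, where the members were high, neuronal markers were at 0.069 and 0.11, much as in TBI 3 (0.10), where the members were low and the microglial markers highest (0.57). The part of cell composition in the members' variation was not tested.

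**Figure D4:**
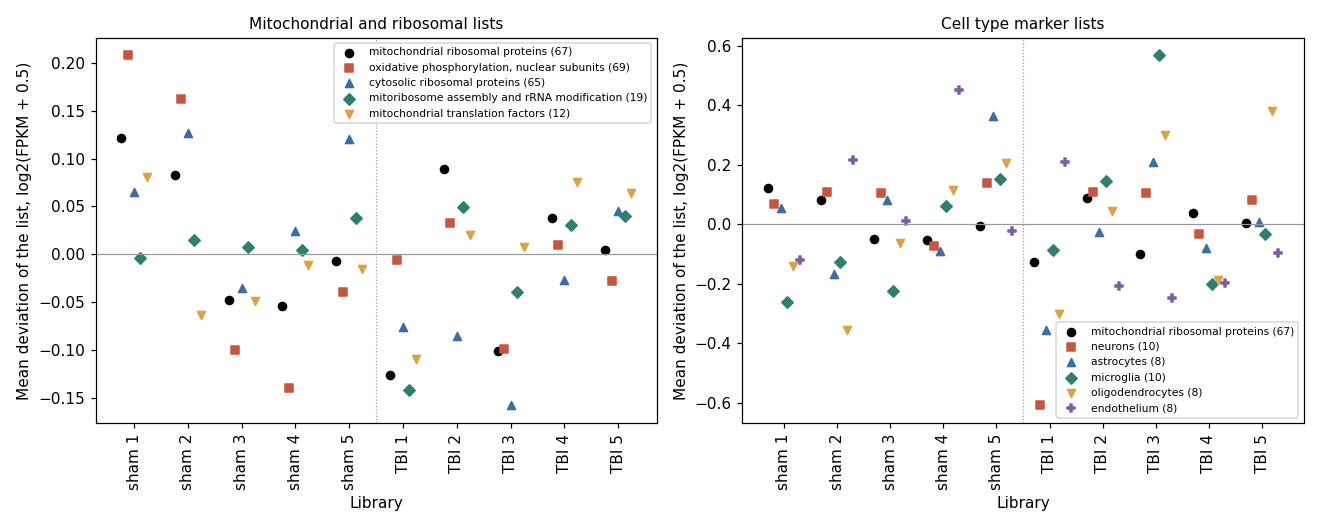
Mean deviation per library of gene lists (number of tested genes in brackets) from their own mean over the 10 libraries, on the log2(FPKM + 0.5) scale; left, mitochondrial and ribosomal lists, right, cell type markers, with sham left of the dotted line and TBI right. The mitochondrial ribosomal proteins (black) lie between -0.13 and 0.12, lowest in TBI 1, where the neuronal markers lie at -0.61.

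Other genes of mitochondrial gene expression were also without a call. Of the subunits of this ribosome that carry other names, 5 were tested and 0 passed in either direction in limma. They were Dap3 (16.8 ± 1.18 FPKM in sham and 17.4 ± 1.56 after TBI), Ptcd3 (17.8 ± 3.40 and 19.4 ± 1.78), Chchd1 (55.2 ± 5.56 and 52.9 ± 7.90), Gadd45gip1 (35.1 ± 1.02 and 33.2 ± 3.49) and the peptidyl-tRNA hydrolase Ict1 (25.1 ± 3.15 and 25.7 ± 2.89). These levels lie within those of the members. Of the 12 genes listed as translation factors 0 passed, and 8 had a higher mean (median 0.02). Among them the elongation factor Gfm1 was at 12.6 ± 0.771 and 13.8 ± 0.750 FPKM, Guf1 at 3.71 ± 0.331 and 4.02 ± 0.519 and the elongation factor Tufm at 32.7 ± 4.44 and 33.8 ± 3.87.

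Of 19 assembly and modification genes 0 passed and 5 had a higher mean (median -0.05). Tfb1m, which methylates the small ribosomal RNA, was at 19.1 ± 2.79 and 16.4 ± 2.21 FPKM, and Fastkd2 at 3.79 ± 0.642 and 4.35 ± 0.472. Of 23 genes of mitochondrial transcription and RNA handling 0 passed and 11 had a higher mean (median -0.01). The transcription elongation factor Tefm was at 4.08 ± 0.415 and 5.08 ± 1.13 FPKM, the RNA processing enzyme Elac2 at 49.3 ± 4.94 and 42.2 ± 8.57, the RNA-binding protein Lrpprc at 31.2 ± 2.64 and 31.4 ± 1.21, the DNA-packaging factor Tfam at 20.8 ± 0.960 and 19.8 ± 1.20 and the RNA polymerase Polrmt at 6.41 ± 0.816 and 6.24 ± 0.994. Of 14 mitochondrial aminoacyl-tRNA synthetases, which charge tRNAs for this ribosome, 0 passed and 10 had a higher mean (median 0.04), with Rars2 at 3.68 ± 0.486 and 4.28 ± 0.209 and Wars2 at 4.69 ± 0.484 and 5.48 ± 0.788. The synthetases had a median level of 5.20 FPKM and the genes listed as translation factors one of 8.46, against 24.8 for the members.

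Of 69 nuclear subunits of oxidative phosphorylation 0 passed and 22 had a higher mean (median -0.03), with a median level of 147 FPKM. Ndufb3 (63.0 ± 13.6 and 49.7 ± 3.65 FPKM) and Ndufa6 (180.2 ± 19.4 and 156.7 ± 13.9), both of complex I, had the smallest p. Of 65 cytosolic ribosomal proteins 0 passed and 11 had a higher mean (median -0.11), with Rps10 (8.59 ± 3.57 and 4.46 ± 0.353 FPKM) and Rpsa (110.5 ± 11.2 and 97.1 ± 7.54) having the smallest p. Of 20 genes of mitochondrial import, mass and its transcription factors 0 passed, and 9 had a higher mean (median -0.03). In this list Gabpa, a subunit of GABP, had the smallest p (51.8 ± 3.30 and 44.0 ± 6.60 FPKM, unadjusted p = 0.0312 and adjusted p = 0.983 in limma), followed by the inner-membrane protein prohibitin (Phb, 20.2 ± 1.97 and 18.8 ± 1.18).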

How the data were processed

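The authors deposited FPKM values for 25269 loci in 10 libraries, with a status word beside each. Per the submitters' processing notes, the build was rn5 and the tools included Cuffdiff, Cufflinks, TopHat2, TopHat, Bowtie2 and Bowtie. The sources used here state no versions, roles, annotation or filters. The 75th percentiles of the libraries were alike while their sums differed. No count test was run because the values did not resolve into whole reads. Strand is not given, so reads of overlapping genes may be mixed. Every value of the members had the status OK.

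Loci sharing a symbol were summed. limma 3.58.1 in R 4.3.3 (mean trend, two-sided) was run on log2(FPKM + 0.5) for 16194 features with a mean of at least 0.5 FPKM, with adjustment over all of them at 0.05. The added 0.5 makes changes of low genes look smaller. The procedure was tested on simulated data, in which each gene and library varied independently. That check therefore does not cover deviations shared by many genes of 1 library, as seen here. The smallest possible exact permutation p is 0.00794 (252 assignments). In that test 568 of 16194 features had an unadjusted p under 0.05, too few for this smallest p to pass adjustment. Members, lists and tests were chosen with earlier results of these data known, and the cytosolic ribosomal list was added after the files were seen. Of 267 list symbols 243 matched, 13 of them through a synonym or a shared locus of one family. Named are the 6 members with the smallest p in each direction, the 6 highest and 4 lowest, those left out by the filter, those with a library that stands apart, the S18 paralogs and 6 genes of known role (of which Mrps22 is not analysed here), and 2 genes per list with the smallest p plus fixed ones. Other genes named, such as those high in TBI 1 and neighbours of a start, were picked after their values were seen. RefSeq windows (GRCr8) served for motifs and neighbours, and no coordinates are printed because the builds differ.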

Additional observations from a re-analysis of the deposited data

Results flagged for a closer look

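Among the 67 tested members, each group of 5 libraries was searched for a library far from the rest, by a rule (Dixon's ratio at the 95% level) that flags about 1 in 20 groups by chance. It marked 7 of 134 groups. TBI 1 was the library in 5 of them. It was low in Mrps12 (14.5 FPKM, against 20.6 to 23.6 in the other TBI libraries), Mrps33 (42.4 against 59.6 to 62.5), Mrpl17 (65.2 against 80.5 to 86.2) and the locus of Mrps21 and Prpf3 (40.8 against 52.6 to 57.1), and high in the locus of Mrps28 and Tpd52 (89.95 against 52.2 to 56.1). The other 2 were sham libraries: Mrpl40 was at 5.001 FPKM in sham 4 against 3.69 to 4.02 in the other sham libraries, and Mrpl54 at 70.6 FPKM in sham 5 against 52.3 to 55.9. TBI 1 also had the lowest summed neuronal markers, and their part in its values was not tested.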

How the results depend on the processing

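Over 27 alternative analyses no member passed adjustment, and the smallest adjusted p of a member was 0.592, in limma with array weights. The exact permutation test is among them, but no feature could pass in it, since its smallest possible p is 0.00794. The count of members with an unadjusted p under 0.05, 0 in the reported analysis, was 1 with quantile normalization (2.86% of all features then), 1 with median ratio scaling (3.1%), 6 with array weights (8.96% of members and 8.14% of features), 3 with the replicate block (4.48% and 4.15%), 2 without the libraries numbered 1 (2.99% and 5.3%), 1 with the exact permutation test (1.49% and 3.51%) and 0 to 3 when 1 library was left out, 3 of them without TBI 1 (4.48% and 2.75%). Groups of 1 member did not overlap without the libraries numbered 1 (Mrpl17, higher after TBI), without sham 4 (Mrpl53) and without TBI 4 (Mrps10), which is 1.49% of members against 2.84%, 0.938% and 0.796% of all features, and the count was 0 to 1 over the libraries left out. Of 67 members 39 had a higher mean with array weights (58.2%, against 54.6% of all features). Without the libraries numbered 1 it was 34 (50.7% and 54.7%), against 22 as reported (32.8% and 50.4%). The count was 17 to 29 when 1 library was left out. The median difference was negative in 25 of the 27 alternatives and 0.0249 with array weights and 0.00239 without the libraries numbered 1. Over all features 0 passed in each alternative except without sham 4, where 2 did, so the range over libraries left out was 0 to 2. The median difference of all features lay between -0.0127 and 0.019 in these alternatives. The 12 members named for their p, picked from these same data, kept their direction in all 27 alternatives. Several alternatives, such as the exact permutation test and the fit without a mean trend, leave the difference itself unchanged. Titles share the numbers 1 to 5 between groups, but same-numbered libraries did not deviate together (correlations of -0.379 to 0.306 across features), so the block is given only here. With only the bases before the start searched, the ETS-type letters were in 15.8% of members' windows and 9.01% of protein-coding ones, and the YY1 letters in 0% and 2.66%. Because depth is unknown, no counting error can be given, and low members such as Mrpl1 and Mrpl40 are the least certain.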
